A study of Homo sapiens with 2 samples.

Results

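The RAB GTPases, the SNARE proteins of the syntaxin, VAMP and SNAP families, and the synaptotagmins were followed through the transcriptome of vorinostat-treated Hodgkin lymphoma cells. Members were all probe sets whose single gene symbol in the platform's annotation table was RAB, STX, VAMP, SNAP or SYT followed by a digit. This gave 147 of the 22283 probe sets of the array, for 84 of 11963 genes with a symbol of their own. They were thus chosen by symbol and by no signal, although the families were picked with earlier results of these data known, so their values are a description. A further 12 probe sets that list such a gene together with another symbol, a readthrough transcript included, were left out.

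Both cultures were of L-540, an established Hodgkin lymphoma cell line, commonly assigned to the T-cell lineage, grown under standard conditions. One culture was left untreated, and the other was treated with vorinostat, a hydroxamate that inhibits zinc-dependent histone deacetylases. Total RNA of each was hybridised to 1 Affymetrix HG_U133A array. The labels give no dose and no time of treatment, and with 1 array per group the differences had no replicate check, so no test was run and a 2-fold difference served as a rule of size.

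Membrane traffic moves cargo between organelles in vesicles. RAB GTPases are small switches that, when bound to GTP, mark a membrane and recruit tethers and motors; fusion is then driven by SNAREs, in which a VAMP on the vesicle pairs with a syntaxin and a SNAP-type partner on the target membrane. Synaptotagmins bind membranes through C2 domains, and several of them act as calcium sensors of secretion. Lymphoid cells use these proteins for housekeeping transport and for the release of cytokines and cytotoxic granules.

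The 43 RAB GTPase genes carried 77 probe sets. There were also 9 genes (13 probe sets) whose symbol starts with RAB but which encode partners of RABs, or in the case of RAB9BP1 a pseudogene. Among the SNAREs there were 14 syntaxin genes (23 probe sets), 7 VAMP genes (16) and 3 SNAP genes, SNAP23, SNAP25 and SNAP29 (6). The 7 synaptotagmin genes had 11 probe sets. SNAP91, with 1 probe set, matches the rule by name but encodes a clathrin assembly protein and no SNARE.

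Signals are MAS5 intensities on a linear scale, and those under a floor of 68.9 signal units were treated as not measured. Of the 84 genes 66 were above the floor on at least 1 array, and each was represented by its brightest probe set. The 18 genes that were not measured included 10 RAB GTPases (RAB13, RAB25, RAB27B, RAB31, RAB38, RAB3B, RAB40A, RAB40AL, RAB40B and RAB40C), the synaptotagmins SYT2, SYT5 and SYT17, the endosomal SNARE VAMP8 (signals of 1.89 and 2.11) and SNAP91 (6.26 and 7.19). RAB13 lay just under the floor in the untreated array (66.2). The other three were RAB11FIP4, RAB3GAP2 and RAB9BP1.

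The labelled cell type was checked on marker genes. Of 7 Hodgkin cell markers 6 were measured, among them TNFRSF8 (CD30, signals of 10777 and 3228, untreated and treated), IRF4 (12032 and 14699) and BATF3 (6199.9 and 1825), while the chemokine gene CCL17 was under the floor on both arrays. None of 3 epithelial markers and 1 of 3 monocyte markers (FCER1G) was measured. All 3 fibroblast markers were measured, with summed signals of 435 and 465. Of 4 T cell markers 3 were measured, with summed signals of 4943 and 1259, CD3D staying under the floor. Of 5 neuronal and endocrine markers only ENO2 was measured (4999 and 3006). The part of any of these in the results below was not tested.

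Vesicle transport genes were not uniformly altered. Among the 66 measured members 6 were at least 2-fold higher after vorinostat, 2 were lower by as much and 58 lay within 2-fold. The background, over all 8277 measured genes, was 3.77% for a ratio of 2-fold or more upward and 5.12% downward. The higher members were the RAB GTPases RAB3A, RAB8B and RAB5C, the RAB11 effector RAB11FIP1, the syntaxin STX7 and the vesicle SNARE VAMP1. The lower ones were RAB11B and the synaptotagmin SYT1. With the arrays scaled to equal medians, which moved the share of higher genes among all genes past 2-fold from 42.4% to 58.6%, the members split into 7 higher and 1 lower, STX3 being added and SYT1 lost. RNA of whole cultures cannot tell apart fewer cells of a kind and less RNA per cell.

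**Figure D1:**
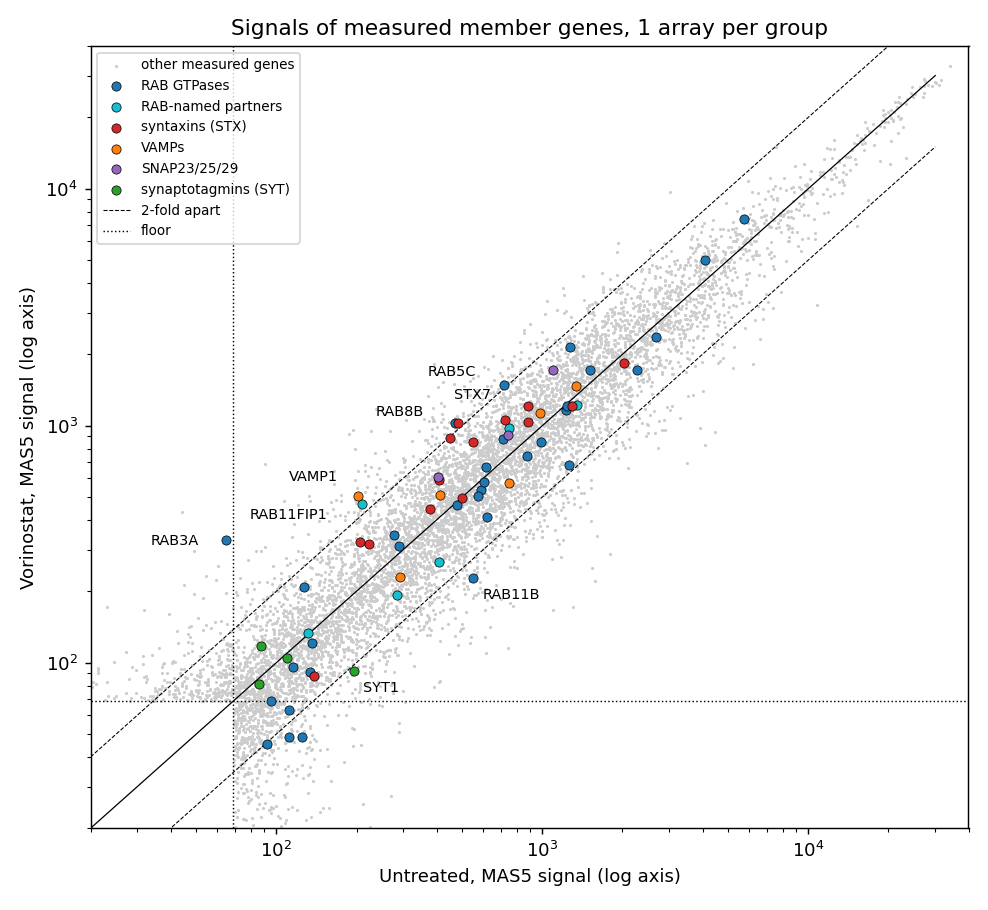
Each coloured point is 1 measured member gene on its brightest probe set, with the untreated MAS5 signal on the x axis and the vorinostat signal on the y axis (both log axes that start at 20 signal units); grey points are the other measured genes. RAB3A stands highest above the diagonal among the members (64.6 and 329.8), and most members lie between the dashed lines that mark 2-fold.

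To show what lies upstream of these genes, 250 bases before the annotated gene start are given for the member furthest past 2-fold in each direction in each family. They come from RefSeq on build GRCh38.p14, written 5′ to 3′ on the strand of the gene; RAB11FIP1 is named only. Capitals mark matches, on either strand, to a GC box (GGGCGG, bound by Sp1-type factors) or a CCAAT box (CCAAT); neighbouring GC boxes can overlap. Matches to the E-box CACGTG and the cyclic AMP response element TGACGTCA were also searched and would be in capitals, but none is present in these 5 windows.
RAB3A, chr19:18204043-18204292, minus strand: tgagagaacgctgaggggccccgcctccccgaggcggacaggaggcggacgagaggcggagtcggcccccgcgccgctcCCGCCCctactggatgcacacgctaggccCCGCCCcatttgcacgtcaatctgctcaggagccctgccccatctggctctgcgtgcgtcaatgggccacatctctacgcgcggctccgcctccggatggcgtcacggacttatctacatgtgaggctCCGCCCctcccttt
VAMP1, chr12:6470678-6470927, minus strand: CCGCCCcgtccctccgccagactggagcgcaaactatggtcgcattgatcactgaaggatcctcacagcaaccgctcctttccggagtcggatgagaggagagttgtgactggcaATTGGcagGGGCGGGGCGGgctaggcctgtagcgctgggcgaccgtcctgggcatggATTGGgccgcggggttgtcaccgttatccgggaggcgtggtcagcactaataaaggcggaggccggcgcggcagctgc
STX7, chr6:132513117-132513366, minus strand: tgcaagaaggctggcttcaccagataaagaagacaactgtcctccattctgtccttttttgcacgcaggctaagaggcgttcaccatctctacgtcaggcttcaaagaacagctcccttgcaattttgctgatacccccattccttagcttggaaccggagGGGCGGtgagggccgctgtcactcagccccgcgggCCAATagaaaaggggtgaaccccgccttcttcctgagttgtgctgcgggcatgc
RAB11B, chr19:8390110-8390359, plus strand: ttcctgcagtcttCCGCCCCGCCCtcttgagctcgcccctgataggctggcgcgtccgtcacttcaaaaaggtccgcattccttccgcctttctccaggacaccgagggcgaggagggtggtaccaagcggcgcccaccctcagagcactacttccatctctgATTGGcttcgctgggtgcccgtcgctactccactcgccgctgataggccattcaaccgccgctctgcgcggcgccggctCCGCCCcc
SYT1, chr12:78864524-78864773, plus strand: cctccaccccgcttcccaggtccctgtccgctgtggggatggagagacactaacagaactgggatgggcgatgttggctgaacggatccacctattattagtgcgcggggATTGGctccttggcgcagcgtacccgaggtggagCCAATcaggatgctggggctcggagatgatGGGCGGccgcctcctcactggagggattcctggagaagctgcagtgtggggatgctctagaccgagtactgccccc
RAB3A, RAB11B and VAMP1 each had 3 GC boxes, and STX7 and SYT1 had 1. RAB3A had no CCAAT box in the window, RAB11B and STX7 had 1 and VAMP1 and SYT1 had 2. So the higher and the lower members both carried GC boxes. A GC box was present in 81.1% of the 53 measured members that have a promoter entry, against 66.3% of 6839 measured genes and 42.3% of all 27305 promoters. For CCAAT the shares were 28.3%, 36.2% and 33.0%, for CACGTG 11.3%, 8.69% and 6.49%, and for TGACGTCA 3.77%, 3.20% and 1.77%. The median GC content of the 250 bases was 65.6% in members and 64.8% in measured genes. A match is a sequence of letters and not a shown binding site.

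SNAREs leaned upward together. Of 24 SNARE genes 23 were measured, and 17 of them had a higher signal in the treated array and 6 a lower one, whereas 47.0% of all measured genes were higher by any amount. The median log2 ratio of the SNAREs was 0.32 and that of all measured genes -0.04. Most single differences were small: 2 SNAREs passed 2-fold, and at a threshold of 1.5-fold 7 of 23 (30.4%) were higher and 1 (4.35%) lower, against 12.7% and 15.5% of all measured genes. Under equal-median scaling 19 of 23 SNAREs were higher, while the share of all genes that were higher became 56.9%. That scaling moved the median of all genes by more than 0.1, to 0.08; relative to the median of all genes the SNARE median was 0.35 as deposited and 0.36 after it.

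Syntaxins, the target-membrane SNAREs, made up most of this. All 14 were measured; 10 were higher and 4 lower, with a median log2 ratio of 0.48. STX7, which acts in fusion of late endosomes, went from 479.95 to 1028 (2.14-fold higher). Its other probe sets also had higher treated signals, 512 and 809 on one and 112 and 149.5 on the other, with log2 ratios of 0.66 and 0.42, so the gene is past 2-fold on 1 of 3 probe sets. STX3, a plasma membrane syntaxin of polarised and secretory cells, lay just under the line: 449.6 and 889 (1.98-fold) and, on its second probe set, 119 and 200.1.

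By compartment the syntaxins of the ER and Golgi were the most even group, with 5 of 6 higher (median 0.53). STX6, of the trans-Golgi network, had signals of 547 and 854 and was higher on each of 3 probe sets. STX5, which serves ER to Golgi transport, went from 207 to 321. STX10 (724 and 1060.5) and STX17, a syntaxin of the ER and of autophagosomes (222 and 317), were 1.47-fold and 1.42-fold higher, and STX18 1.18-fold. STX16, whose 3 probe sets had log2 ratios between -0.18 and -0.14, was the lower member of the group. Of the 3 endosomal syntaxins STX7 and STX12 (884 and 1206) were higher and STX8 had signals of 1294 and 1204.

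The 5 measured plasma membrane syntaxins were the least alike, with a median of 0.22. STX1A, the neuronal syntaxin, went from 409.8 to 587 (1.43-fold higher). STX4, the widely expressed plasma membrane syntaxin, was 1.17-fold higher (885 and 1032). STX2 had probe sets in opposite directions, with log2 ratios of -0.02 and 0.39. STX11, which lymphocytes need for cytotoxic granule release, was the one lower by more than 1.5-fold, with signals of 138 and 87.9 that lie close to the floor. STX3, STX11 and the compartment members not past 2-fold were named after their values were seen.

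VAMPs, the vesicle-side SNAREs, were divided. VAMP1 had the largest ratio among the STX, VAMP and SNAP genes, from 202 to 506 (2.50-fold higher), and its second probe set, with 121 and 276, was 1.19 on the log2 scale; its remaining probe set was under the floor on both arrays. VAMP1 is best known from synaptic vesicles. VAMP3 (cellubrevin, of recycling endosomes) had log2 ratios of 0.13 to 0.36 on its 3 probe sets, VAMP7 of late endosomes and lysosomes was 1.16-fold higher (979.8 and 1134), and VAMP4 of the trans-Golgi had probe sets at 0.32, 0.31 and -0.02. VAMP2, the close relative of VAMP1, went from 749.8 to 574 on the brightest of its probe sets, which is -0.39 on the log2 scale, with -0.10 and 0.17 on the others. VAMP5 had signals of 292 and 230.1. So among the 6 measured VAMPs 4 were higher and 2 lower, and the probe sets of VAMP2 and VAMP4 did not all point one way.

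The SNAP genes each had a higher treated signal on every probe set. SNAP23, the widely expressed partner of plasma membrane syntaxins, had 1097 and 1711, 337 and 599, and 197 and 348, log2 ratios between 0.64 and 0.83. SNAP25, its neuronal counterpart, had 406 and 609 on the brighter probe set and 273 and 585 on the other, where it passed 2-fold (a log2 ratio of 1.10). SNAP29, an endosomal and autophagosomal SNARE, went from 742 to 910.4 on its only probe set. The median of the 3 genes was 0.59, and none was past 2-fold on its brightest probe set.

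**Figure D2:**
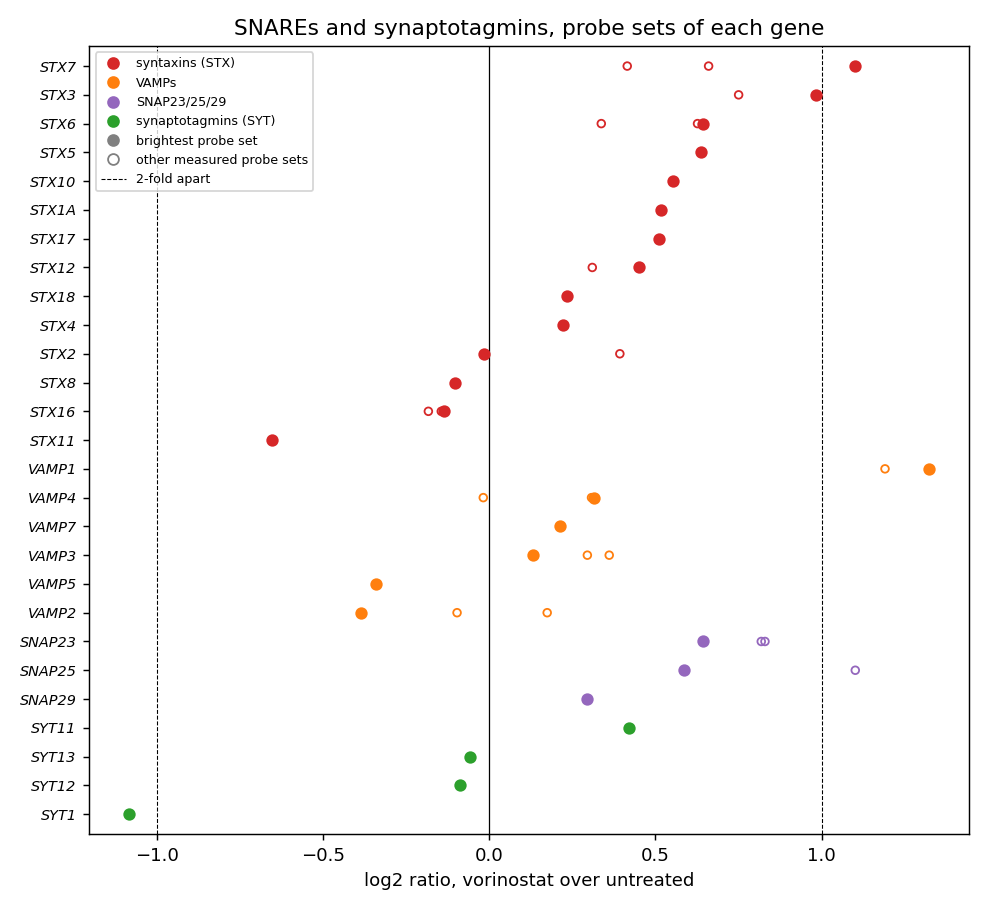
The x axis gives the log2 ratio of vorinostat over untreated for each measured SNARE and synaptotagmin gene; filled points are the brightest probe set of the gene, open points its other measured probe sets, and dashed lines mark 2-fold. Points lie mostly right of 0 for syntaxins and SNAP genes (medians of 0.48 and 0.59), while SYT1 stands alone at -1.08.

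Only 4 of 7 synaptotagmins were measured, all with dim signals. SYT1, the calcium sensor of synaptic vesicle release, went from 196 to 92.4 (2.12-fold lower), and its second probe set was under the floor on both arrays (42.5 and 5.43). This call ended under 4 other settings, where its log2 ratio was between -0.98 and -0.94. SYT11, a form that does not act as a calcium sensor, had 87.9 and 118 (a log2 ratio of 0.42), SYT12 had 86.3 and 81.2, and SYT13 had 109 and 105. The median over the 4 was -0.07. The untreated signals of these 3 genes were less than 2-fold above the floor, so a 2-fold drop could not have been seen in them.

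RAB GTPases did not share this lean. Of 33 measured RABs 12 were higher and 21 lower, while 47.0% of all measured genes were higher. The median log2 ratio of the RABs was -0.14 against -0.04 for all measured genes. Under equal-median scaling 16 RABs were higher and 17 lower, beside 56.9% of all genes higher, and the RAB median was -0.01. The range was wide, from -1.27 for RAB11B to 2.26 for RAB3A, and 5 RABs had a bound because 1 array was under the floor, 4 of them in the treated array. At 1.5-fold 5 RABs (15.2%) were higher and 6 (18.2%) lower, close to the 12.7% and 15.5% of all measured genes. The split by sign depended on the setting. Taking the median over probe sets, 15 RABs were higher and 18 lower, with medians of -0.07 for RABs and -0.04 for all genes. A floor at the 25th percentile gave 17 higher and 22 lower, with medians of -0.07 and -0.05.

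RAB3A, the RAB of synaptic and other secretory vesicles, had signals of 64.6 without and 329.8 with vorinostat. As the untreated signal is under the floor, the gene was at least 4.79-fold higher. It rests on 1 probe set. A floor at the 60th percentile would give a bound of 0.53 on the log2 scale. The other measured RABs of regulated secretion did not share this ratio. RAB27A, which docks secretory and cytotoxic granules, had log2 ratios of 0.00 to 0.20 on its 4 probe sets. RAB3D had 95.5 and 69.0, and RAB26 had probe sets in opposite directions near the floor. Outside the RABs, genes of secretion went both ways: VAMP1 was 2.50-fold and UNC13B 2.89-fold higher, and SYT1 was 2.12-fold lower. The neuronal markers SYN1 (24.8 and 22.7), CHGA (49.7 and 47.9), STMN2 and NEFL were under the floor on both arrays, and ENO2 was lower in the treated one.

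Among early endosome RABs 1 of 8 was past 2-fold, beside 3.77% of all measured genes past it upward and 5.12% downward. RAB5C, a regulator of early endosome fusion, went from 715 to 1479.9 (2.07-fold higher), and its second probe set from 522 to 843 (a log2 ratio of 0.69). RAB14 was 1.24-fold higher (709 and 881), with a log2 ratio of 0.26 on its other measured probe set. Nearer to 0 were RAB21 (1228 and 1160.0), RAB20 (589 and 535) and RAB22A, whose 3 probe sets had ratios between -0.21 and 0.09. RAB4A, which returns cargo rapidly to the surface, had a log2 ratio of -0.05 on the brightest and 0.42 and 0.23 on its other probe sets.

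In the grouping used here, late endosome and lysosome RABs had 3 of 5 measured members higher (median 0.11, the value of RAB23). RAB7A, the RAB of late endosomes and lysosomes, went from 1275 to 2152 (1.69-fold higher) and from 1055 to 1664 on its second probe set. RAB9A, which returns receptors from late endosomes to the Golgi, had 1237 and 1215. RAB29 had 612 and 669.5, RAB23 had 289 and 312, and RAB32, of lysosome-related organelles, had 137 and 121. RAB7A was thus the 1 member of this group beyond 1.5-fold.

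ER and Golgi RABs had the lowest median of the compartment groups, -0.60, with 5 of 7 lower on the brightest probe set and none past 2-fold. The higher members were RAB1A (4092 and 5001, higher on each of its 3 probe sets) and RAB33B (127 and 209). RAB33A, whose value is the median, had 620 and 410. RAB1B, needed for ER to Golgi transport, went from 1255 to 685 (1.83-fold lower). RAB6B (125 and 48.8) and RAB30 (111 and 62.9) dropped below the floor with vorinostat, which gives at least 1.82-fold and 1.62-fold lower. RAB2A, which acts between the ER and the Golgi, had a log2 ratio of -0.24 on the brightest and 0.09 to 0.43 on its 3 other probe sets. In this group the syntaxins and the RABs therefore had medians of opposite sign, 0.53 and -0.60; the difference was not tested, and 2 of the 7 RABs entered at a bound.

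Recycling and exocytic RABs held members past 2-fold in both directions. RAB8B went from 468 to 1027 (2.19-fold higher) on its only probe set, and RAB11B from 549 to 228 (2.41-fold lower). The second probe set of RAB11B gave 321 and 177, a log2 ratio of -0.86. RAB35, an endocytic recycling RAB, had 575 and 503 on the brighter of its probe sets and 241 and 118 on the other (log2 ratios of -0.19 and -1.03). RAB15 (112 and 48.5) and RAB17 (92.1 and 45.5) lay below the floor with vorinostat, at least 1.62-fold and 1.34-fold lower. The group median was -0.40.

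**Figure D3:**
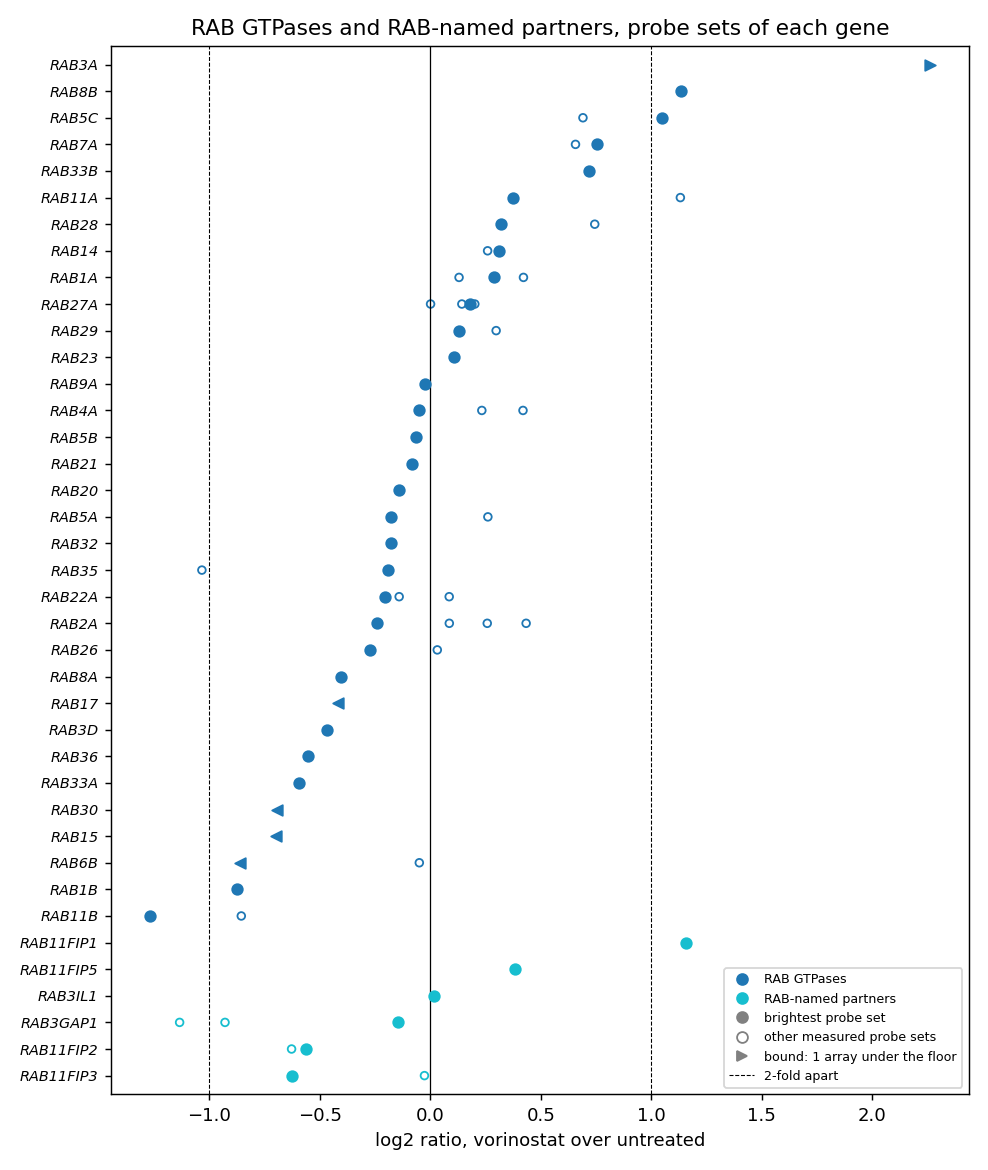
The x axis gives the log2 ratio of vorinostat over untreated for each measured RAB GTPase and RAB-named partner; filled points are the brightest probe set, triangles mark bounds where 1 array was under the floor, open points are other measured probe sets (a bound among these is not marked), and dashed lines mark 2-fold. RAB3A lies at 2.26 and RAB11B at -1.27, and 21 of 33 RAB GTPases lie left of 0.

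Closely related RABs parted. RABs that share a number are paralogs that mark the same or neighbouring membranes, and 6 such groups had at least 2 measured members, 13 genes in all. In each of the 6 groups 1 paralog was higher and another lower on the brightest probe sets. With 47.0% of all measured genes higher, opposite signs within a pair are common. This grouping was made after the values were seen, and no test was run.

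In the RAB11 group, which serves recycling endosomes, RAB11A had 5726 and 7417 (1.30-fold higher), with 170.3 and 373 on its second probe set (a log2 ratio of 1.13), against the 2.41-fold lower RAB11B. Both probe sets of RAB11A were higher and both of RAB11B lower. The RAB8 group, of exocytic carriers, paired RAB8B with RAB8A, which had 2274 and 1719 (1.32-fold lower).

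In the RAB5 group RAB5A had 2664 and 2354 on the brighter of its probe sets and 457 and 547 on the other, so its direction is unsettled, and RAB5B had 603 and 576. RAB5C was the one past 2-fold. In the RAB1 group RAB1A had 4092 and 5001 (1.22-fold higher, with 3 of 3 probe sets higher) against the 1.83-fold lower RAB1B. The RAB33 group, of Golgi and autophagy RABs, split into RAB33B with 127 and 209 (1.64-fold higher) and RAB33A with 619.9 and 410.1 (1.51-fold lower).

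The difference in log2 ratio between the highest and the lowest paralog was 2.73 in the RAB3 group (a lower bound, since RAB3A was under the floor when untreated), 1.64 for RAB11, 1.54 for RAB8, 1.31 for RAB33, 1.23 for RAB5 and 1.16 for RAB1. For scale, log2 ratios of different probe sets of 1 gene had a pooled SD of 0.25 over 28 members and 0.30 over 2428 genes, counting probe sets above the floor on both arrays. That SD covers disagreement between probe sets on this pair of arrays and says nothing of the spread between cultures. Taking the median over probe sets, the RAB5 difference was 0.83, short of 2-fold. RAB11A, RAB8B, RAB33B, RAB5C and RAB1B had only probe sets with a suffix for sequence shared between transcripts or genes. Without such probe sets only the RAB3 difference, between RAB3A and RAB3D, could be taken.

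**Figure D4:**
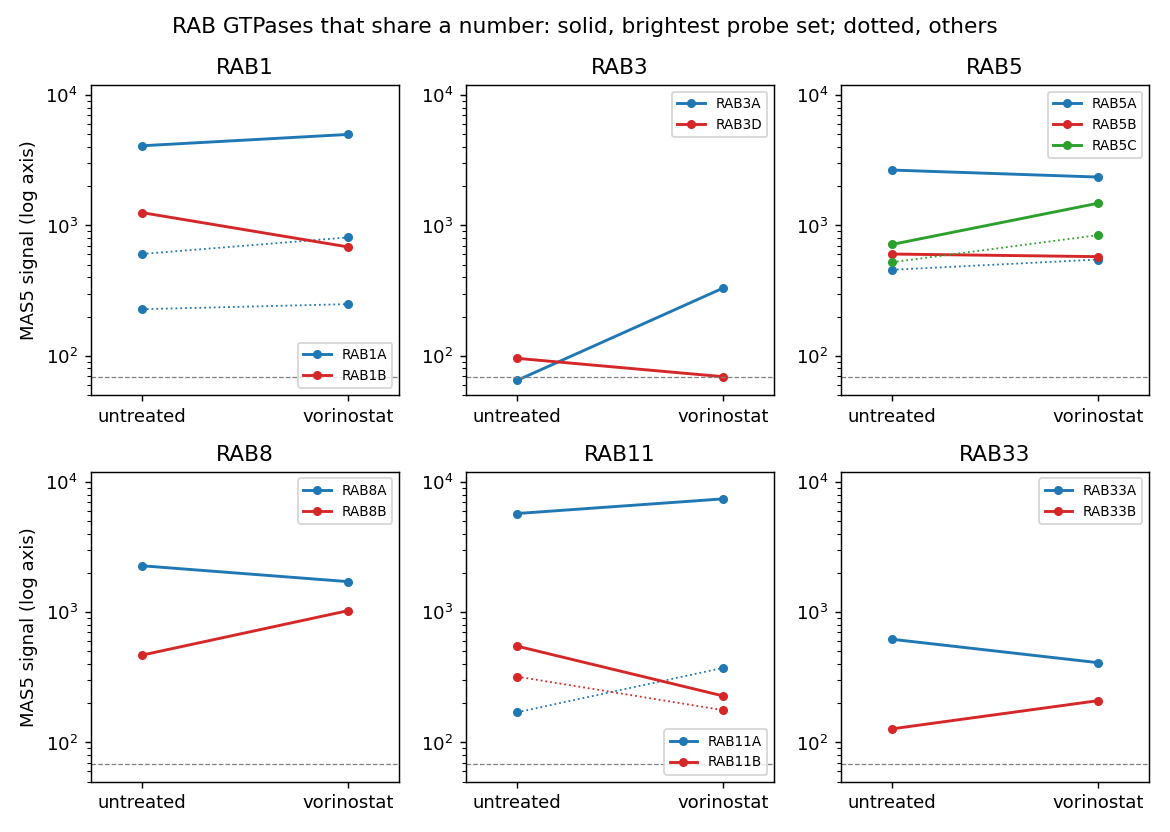
Each panel shows MAS5 signals (log axis) in the untreated and the vorinostat array for RAB GTPases that share a number; solid lines are the brightest probe set of a gene, dotted lines its other measured probe sets, and the dashed line is the floor of 68.9. In each panel 1 solid line goes up and another goes down; signals of different probe sets are not comparable in level, so the slopes are what to read.

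The RAB-named partners had 6 measured genes of 9, 3 higher and 3 lower. RAB11FIP1, an effector that links RAB11 to recycling vesicles, went from 209 to 467 (2.23-fold higher) on its only probe set. The related effectors differed: RAB11FIP5 had 746 and 974, RAB11FIP2 had 284 and 192, and RAB11FIP3 had 409 and 265 with a second probe set close to the floor. RAB3GAP1, the catalytic subunit that switches RAB3 off, had 1349 and 1218 on the brightest of 3 probe sets, a log2 ratio of -0.15, and ratios of -0.93 and at most -1.13 on the others. RAB3IL1, an exchange factor that binds RAB3A, had 131 and 133.

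Across members with at least 2 measured probe sets, 23 of 31 had probe sets that all went one way and 8 did not: RAB22A, RAB26, RAB2A, RAB4A, RAB5A, STX2, VAMP2 and VAMP4. In none of these 8 was any probe set past 2-fold. For SNAREs 8 of 12 were higher on each probe set, 1 was lower on each and 3 were mixed. The brightest probe sets of 30 of the 66 measured members carry a suffix for sequence shared between transcripts or genes, so signal from near-identical family members cannot always be told apart on them.

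Other trafficking genes were taken from 4 lists chosen for their roles. Over all measured genes 3.77% were at least 2-fold higher, 5.12% at least 2-fold lower and 47.0% higher by any amount. The lists are short, so their counts are a description only. Among SNAREs not covered by the naming rule, 1 of 10 measured was at least 2-fold higher and 0 lower, with 7 higher by any amount (median 0.21). SEC22B, an ER to Golgi SNARE, went from 423 to 1067 (2.52-fold higher), and YKT6 had 699 and 1232. BNIP1 and USE1, SNAREs of the route back to the ER, had log2 ratios of -0.84 and -0.80. So this group had the sign of the SNARE members in most but not all genes.

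Regulators that load, chaperone or recycle SNAREs had 2 of 12 measured genes at least 2-fold higher and 0 lower (median -0.06). By any amount 5 were higher and 7 lower. The lower ones included STXBP2, STXBP3 and NAPG, with log2 ratios of -0.70, -0.60 and -0.19. NSF, the ATPase that takes spent SNARE complexes apart, had 831 and 1697 (2.04-fold higher; its log2 ratio was 0.99 after loess, short of 2-fold), and its adaptor NAPA had 910.3 and 1407. UNC13B, a priming factor for secretory vesicles, went from 168 to 485 (2.89-fold higher).

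Genes that prenylate, recycle or switch RABs had 2 of 16 at least 2-fold lower and 0 higher (median 0.07). By any amount 9 of them were higher and 7 lower. RABGGTA, the alpha subunit of the geranylgeranyl transferase that attaches lipid to RABs, went from 505 to 216 (2.34-fold lower), while the beta subunit RABGGTB had 1579 and 1830.1. RABIF, a chaperone-like partner of nucleotide-free RABs, had 706 and 314 (2.25-fold lower), and 144 and 104 on its other probe set (a log2 ratio of -0.47, the value without shared-sequence probe sets). Of tethers and RAB effectors 3 of 18 were at least 2-fold lower and 0 higher (median -0.03), with 8 higher and 10 lower by any amount. RABEP2, a RAB5 effector, had 431 and 189 (2.28-fold lower), MLPH, a RAB27 effector, 192 and 95.3 (2.02-fold lower), and RPH3AL, an effector of RAB3 and RAB27, was below the floor with vorinostat (at least 2.05-fold lower). The MLPH and RPH3AL calls ended after quantile normalization and after loess, at log2 ratios of -0.87 and -0.91 for MLPH and -0.97 and -0.94 for RPH3AL, and that of RABEP2 once the 60th percentile was the floor (-0.91); MLPH also fell short after equal-median scaling (-0.88) and with the offset (-0.90).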

How the data were processed

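Intensities were the MAS5 signals per probe set that the authors deposited for 1 untreated and 1 vorinostat-treated L-540 culture on HG_U133A arrays, with MAS5 named in the submitters' processing notes; its version and scaling target are not given in the sources used here, and detection calls were not used. The trimmed mean (2% off each end) was 500.2 on both arrays, and the scaling was kept. The number of arrays limits the precision.

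Gene symbols came from the platform's annotation table, and 84 of 84 member genes matched a RefSeq table of GRCh38.p14, with 0 symbols changed. The floor was the 40th percentile of non-control signals over both arrays, above the highest of 27 poly-A control probe sets (43.1). Signals under it were set to it before log2; a probe set under it on both arrays was not measured, and on 1 array gave a bound. Log2 ratios are vorinostat over untreated, on the gene's brightest probe set by mean log2 signal. A group of 1 array allows no test, so there are no p-values. Genes past 2-fold were counted, a step tested on simulated data. Named were members past 2-fold on any probe set, the 3 brightest of each family and members with opposed probe sets. All measured SNAP, VAMP and SYT genes and the list genes past 2-fold were named too. Members beyond these, paralogs and compartment members included, were named after their values were seen. So were list genes short of 2-fold, such as YKT6, BNIP1, USE1, NAPA and RABGGTB. Members and lists were chosen with earlier results of these data known. Alternatives were other scalings, floors, an offset of 16, other ways to choose a probe set, and thresholds of 1.5-fold and 3-fold. Python 3.11.15, numpy 2.4.6, pandas 2.3.3 and statsmodels 0.14.6 were used.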

Additional observations from a re-analysis of the deposited data

How the results depend on the processing

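No paired analysis was possible because each group held 1 array. Of the 66 measured members, 6 were at least 2-fold higher and 2 lower. The number higher was 3 without shared-sequence probe sets (43 members left), 13 at 1.5-fold and 1 at 3-fold. The number lower was 1 after equal-median scaling, quantile normalization, loess or a floor at the 60th percentile, 5 with the floor at the highest poly-A control, 6 for a floor at the 25th percentile, 9 at 1.5-fold and 0 at 3-fold; lower floors added RAB15, RAB17 and RAB6B, and the lowest one RAB13, which are bounds or not measured otherwise. The members' median log2 ratio was 0.00, and 0.13 after equal-median scaling, 0.11 and 0.21 for floors at the 25th and the 60th percentile, and 0.17 taking the median over probe sets. The SNARE count of 17 of 23 was 10 of 14 without shared-sequence probe sets, and the SNARE median of 0.32 was 0.44 after equal-median scaling. The RAB GTPase median of -0.14 was -0.011 after equal-median scaling and -0.038 for a floor at the 60th percentile. RAB5C and STX7 fell short of 2-fold with the median over probe sets (0.87 and 0.66). RAB3A fell short for a floor at the 60th percentile (0.53). SYT1 fell short after equal-median scaling, quantile normalization, loess and with the offset. No member past 2-fold changed direction under any setting run. VAMP1, RAB8B, RAB11B and RAB11FIP1 stayed past 2-fold wherever they were measured. RAB8B and RAB11FIP1 each rest on 1 shared-sequence probe set, so neither was measured in the setting without such probe sets. The settings for SNAREs, RAB GTPases, paralogs and other trafficking genes were added after seeing the data. Dim members, the synaptotagmins above all, are limited by the floor.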

Other observations

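The route by which lymphocytes release cytotoxic granules runs through RAB27A, STX11 and the STX11 partner STXBP2. Of these genes and the granule contents given here, RAB27A was higher and the others were lower. Over all measured genes 47.0% were higher by any amount, so lower signals are common. SNAP23, the partner of plasma membrane syntaxins, is not in this set and was higher on each of its probe sets. RAB27A had signals of 1511 without and 1713 with vorinostat, and STX11 had 138 and 87.9, close to the floor. STXBP2 had 867 and 534 (1.62-fold lower). The pore-forming granule protein gene PRF1 went from 6777 to 2819 and the granule protease gene GZMB from 851 to 476. This set was chosen after the values were seen, each gene but RAB27A rests on 1 probe set, and no test was run.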
